A study of Mus musculus with 26 samples.

Results

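Genes that were higher or lower at DN2 than at both neighbouring thymocyte stages, DN1 and DN3, were sought in messenger RNA profiles of mouse blood cell progenitors. The comparison rests on 9 of the 26 arrays of the study, the DN1, DN2 and DN3 arrays (n = 3 each), and takes for each gene the DN2 mean minus the average of the DN1 mean and the DN3 mean. A gene was called above both, or below both, where DN2 differed from DN1 and from DN3 in that direction with an adjusted p under 0.05 in each. Of 18194 genes tested, 415 (2.28%) were called above both and 209 (1.15%) below both.

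The study profiled 8 progenitor populations on Affymetrix arrays, 1 array per sample. DN1, DN2 and DN3 are labelled as thymocytes, and the MPPFL-, MPPFL+, CMP, GMP and CLP populations as bone marrow. All samples are labelled as C57/Bl6 males aged 2 months, with no genetic change or treatment named. The labels do not give the surface markers used for sorting, nor whether replicates came from separate mice, so the p-values measure only the spread between these samples, which may be technical.

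Progenitors that enter the thymus from the blood pass through double-negative stages, so called because they lack CD4 and CD8. In the usual scheme DN1 cells carry Kit and CD44, DN2 cells carry both and gain CD25 (encoded by Il2ra), and DN3 cells keep CD25, lose Kit and CD44 and rearrange the T cell receptor beta gene. DN2 is known as a stage of division under Notch and interleukin 7 signals in which cells give up other blood lineages.

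The stage markers changed in the order of the stage names, although Il2ra was not absent at DN1. Il2ra was at 8.53, 7.05 and 6.53 on the log2 scale on the DN1 arrays, at 13.56, 13.19 and 12.67 on the DN2 arrays and at 13.31, 13.42 and 12.76 on the DN3 arrays. It therefore rose at DN2 and stayed there, and it was not called above both. In the marrow populations Il2ra averaged 2.17 to 2.19, so the DN1 arrays carried Il2ra signal. The part of DN2 cells in the DN1 arrays was not tested. Kit, the stem cell factor receptor, averaged 11.96 ± 0.25 at DN1, 11.66 ± 0.21 at DN2 and 9.95 ± 0.20 at DN3 (SD, n = 3 each). Cd44, an adhesion receptor for hyaluronan, averaged 12.48 ± 0.10 at DN1, 11.21 ± 0.17 at DN2 and 4.54 ± 0.74 at DN3. Ptcra, the pre-T cell receptor alpha chain, lay between 2.18 and 3.44 on the 6 DN1 and DN2 arrays and between 12.32 and 13.25 on the DN3 arrays.

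Array controls set the DN3 arrays apart from the DN1 and DN2 arrays. Averaged over 27 probe sets, the poly-A spike-ins (bacterial transcripts put into the RNA as a labelling control) lay between 2.46 and 2.56 on the 6 DN1 and DN2 arrays and was 11.4, 11.7 and 9.87 on the DN3 arrays. The 18S ribosomal RNA control was 8.59, 8.57 and 10.3 at DN1, 8.04, 7.77 and 8.21 at DN2 and 12.9 to 13.2 at DN3. Whatever set these controls apart cannot be told apart from stage in the comparison of DN2 with DN3, while DN2 and DN1 shared the same spike-in range. Against the male label, Xist, transcribed from the silenced X of female cells, had levels of 12.21 and 13.59 on DN1 replicates 1 and 3, at 12.99 on DN2 replicate 2 and at 6.30 on DN2 replicate 3. The Y chromosome gene Eif2s3y stood at 2.62 on DN1 replicate 3 and at 2.17, the floor of the measurement, on DN2 replicate 2, against 12.28 or more on the other 7 arrays. DN1 replicate 1 lay nearest to DN2 among the DN1 arrays, with Bcl11b, the factor of T lineage commitment, at 9.18 there and at 4.72 and 2.89 on DN1 replicates 2 and 3. In bulk RNA, fewer cells of a type and less RNA per cell cannot be told apart.

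**Figure D1:**
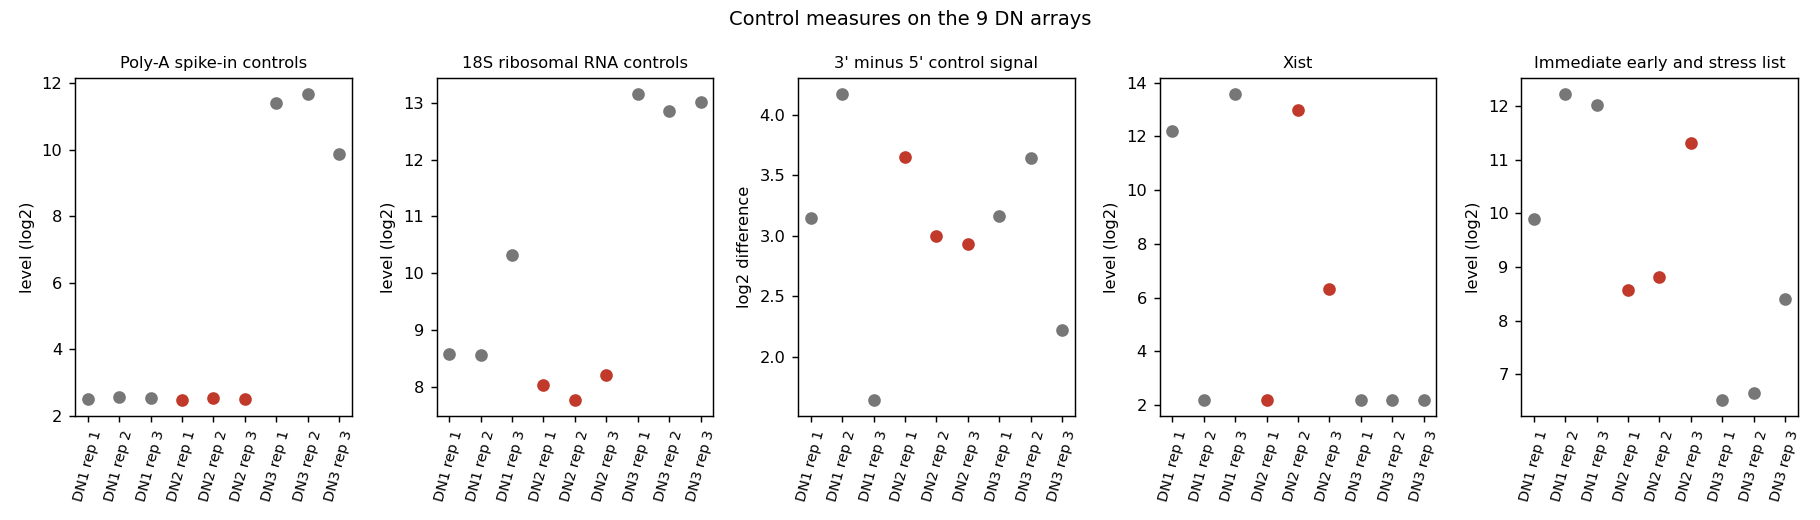
Control measures on the 9 DN arrays, 1 point per array, on log2 scales (the third panel is a log2 difference, 3' minus 5' control signal), with DN2 in red. Spike-in and 18S controls are high on the 3 DN3 arrays (spike-in 9.87 to 11.7), Xist is high on 4 DN1 and DN2 arrays, and the immediate early list is lowest at DN3.

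Against the midpoint of its neighbours, DN2 was higher for 1759 genes (9.67%) and lower for 1832 (10.1%). Most of these passed against a single neighbour, mainly DN3, the comparison in which the array controls differed too. Of the 1759, 415 passed against both neighbours, 1148 against DN3 alone, 78 against DN1 alone, 77 against both in opposite directions and 41 against neither. Of the 1832, 209 passed against both, 1428 against DN3 alone, 137 against DN1 alone, 39 in opposite directions and 19 against neither. The 2 neighbours were unequal, since DN2 was over DN1 for 726 genes (3.99%) and under it for 749 (4.12%), and over DN3 for 2613 (14.4%) and under it for 3039 (16.7%).

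The 415 genes above both were nearer to DN1 than to DN3 in 304 cases. Their median difference was 0.92 from DN1 and 1.5 from DN3 on the log2 scale, and 169 of them differed by at least 1 from the nearer stage. On 342 of them the 3 DN2 arrays overlapped no DN1 or DN3 array, while 849 genes (4.67%) showed such a gap upward whatever their test. A group of 80 lay within 1 log2 unit of the floor of the measurement on every DN1 and DN3 array. On every DN2 array 49 genes did so, and the differences of these 49 are small and near the floor. The DN2 mean was the highest of all 8 populations for 245 of the 415 (59.04%), against 11.15% of genes above the floor, a share that the rule itself raises by setting DN2 over DN1 and DN3. The 209 genes below both differed by a median of -1.37 from DN1 and -1.55 from DN3. Of these, 130 differed by at least 1 from the nearer stage. The DN2 arrays overlapped no neighbour for 189 of them, against 509 genes (2.8%) with such a gap downward in all. Of 260 genes above both with other probe sets, 64 had another called the same way and 0 the opposite way. Below both, 125 genes had other probe sets, with another called the same way for 20 and the opposite way for 1. At the threshold, Lrrc40, a leucine-rich repeat protein, was inside with an adjusted p of 0.0499 against its less clear neighbour (limma), and Rangap1, the GTPase activator of nuclear transport, outside with 0.0502.

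**Figure D2:**
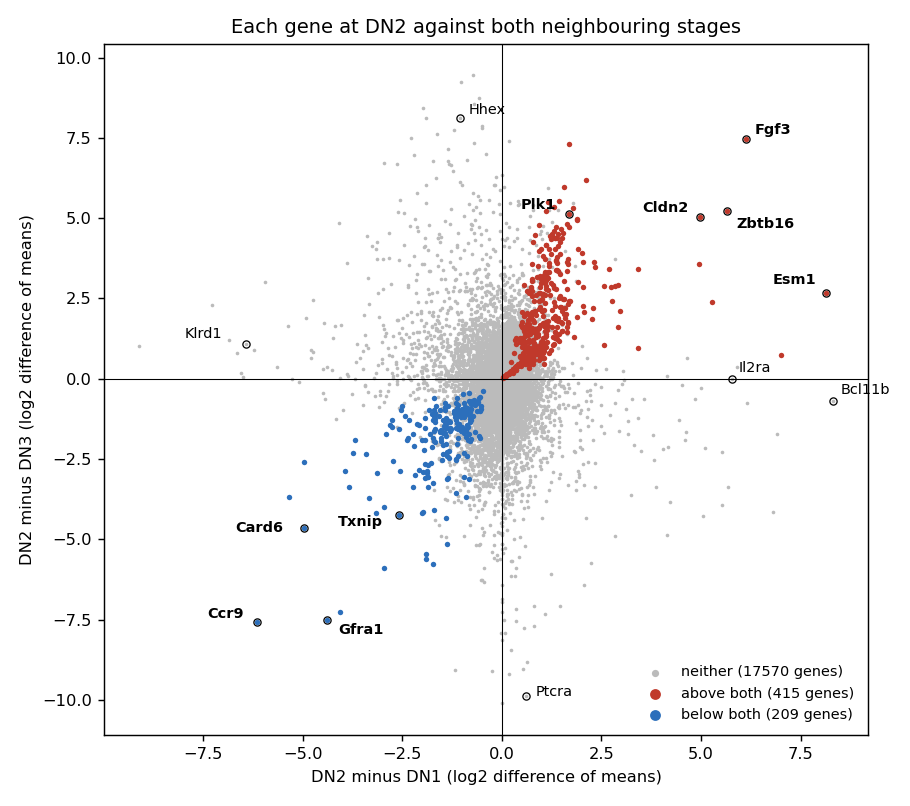
Each gene's DN2 minus DN1 difference (horizontal) and DN2 minus DN3 difference (vertical), both log2 differences of means, for 18194 genes. The 415 genes above both (red) fill the upper right, Fgf3 and Zbtb16 among them, the 209 below both (blue) the lower left, Ccr9 and Gfra1 among them, and step genes such as Il2ra and Bcl11b lie near an axis.

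The counts depended on the arrays used. Without DN1 replicate 3 they were 262 above both and 137 below both, without DN1 replicate 2 there were 324 below both, and without DN2 replicate 2 there were 274 above both. Without the 4 DN1 and DN2 arrays with Xist above 6, which leaves 1 array of each of these stages, their spread is assumed to be that of the other populations. In that fit 342 genes were called above both and 70 below both, and 103 and 45 of them were also called with all arrays. With the spike-in level as a covariate, 74 and 16 were called, 42 and 6 of them shared with the calls on all arrays. The spike-in level was 2.46 to 2.56 at DN1 and DN2 and 9.87 to 11.7 at DN3. That fit thus extrapolates across a gap for DN3 and cannot separate spike-in level from stage. No conclusion is drawn from calls lost there.

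By the difference from the nearer stage, the first genes above both were Fgf3, Zbtb16, Cldn2, Pou2af1 and Tuba8. Fgf3, a secreted fibroblast growth factor, was at 5.79, 4.34 and 4.34 at DN1, at 10.78, 11.34 and 10.70 at DN2 and at 3.14, 3.97 and 3.32 at DN3. The DN2 arrays lay far above all others, by 6.12 over DN1 (SE 0.53, adjusted p = 1.83e-07, limma) and 7.46 over DN3 (SE 0.53, adjusted p = 1.55e-09). Both other probe sets of Fgf3 were also called above both. Among marrow populations its highest mean was 7.88 ± 0.63 in MPPFL- (SD, n = 5), where no array exceeded 8.38.

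Cldn2, a claudin of tight junctions, was at 5.90, 7.77 and 7.95 on the DN2 arrays, against 2.17, 2.17 and 2.33 on the DN1 arrays and 2.17 on each DN3 array. All marrow populations were at the floor. Cldn2 was at least 31.5-fold higher at DN2 than at DN1 (adjusted p = 1.48e-09) and at least 32.7-fold higher than at DN3 (adjusted p = 1.52e-10, limma). The fit shared a single spread over all populations, and Cldn2 was flat at the floor in marrow and at DN3. The SE of 0.31 and these p-values thus understate the spread at DN2, where the SD was 1.13 (n = 3). The other probe set of Cldn2 was not called, and the gene lies on the X chromosome. Cldn2 was lowest on DN2 replicate 1, the DN2 array on which Xist was near the floor. On DN1 replicates 1 and 3, where Xist was at 12.21 and 13.59, Cldn2 was at 2.17 and 2.33. The part of the Xist difference in the Cldn2 result was not tested.

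Esm1, a secreted proteoglycan also named endocan, was at 2.45, 4.34 and 2.32 at DN1, at 11.19, 11.30 and 11.06 at DN2 and at 7.88, 8.57 and 9.11 at DN3. It had 2 steps, a gain of 8.15 over DN1 (SE 0.59, adjusted p = 1.5e-08) and a smaller excess of 2.67 over DN3 (SE 0.59, adjusted p = 0.00145, limma). With the spike-in level as a covariate, which cannot be separated from stage, the difference from DN3 turned to -1.85 (adjusted p = 0.978, limma). Mpp4, a membrane scaffold known from photoreceptors, had the same shape, at 2.69, 2.80 and 2.67 at DN1, 8.11, 7.87 and 8.02 at DN2 and 5.27, 5.71 and 5.82 at DN3. For Mpp4 the excess over DN3 was 2.40 (SE 0.27, adjusted p = 7.7e-07, limma).

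Gja1, the gap junction protein of the connexin family, was at 8.34, 8.62 and 8.33 at DN1, at 11.04, 10.82 and 10.33 at DN2 and at 8.00, 8.92 and 8.63 at DN3. It was higher at DN2 by 2.30 over DN1 (SE 0.31, adjusted p = 4.86e-05) and 2.21 over DN3 (SE 0.31, adjusted p = 1.35e-05, limma), and 3 of its 5 other probe sets were called the same way. Its MPPFL- level, 10.88 ± 0.23 (SD, n = 5), lay within the range of the DN2 arrays. Itga4, the alpha 4 chain of the integrin that binds VCAM-1 and fibronectin, was at 12.40, 11.88 and 11.81 at DN1, at 13.41, 13.52 and 13.70 at DN2 and at 12.30, 11.96 and 11.90 at DN3. The DN1 and DN3 arrays shared 1 range, and every DN2 array lay above it, by 1.52 over DN1 (SE 0.22, adjusted p = 0.000118) and 1.49 over DN3 (SE 0.22, adjusted p = 2.62e-05, limma). Among 24 measured chemokine receptors, integrins and adhesion genes, Itga4 was the 1 above both (2.28% over all genes). Ccr9 was the 1 of that list below both (1.15% over all genes). That list had a median midpoint difference of -0.02, against 0.0 over all genes.

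Trpa1, a cation channel of sensory neurons, was higher at DN2 by 2.69 over DN1 and 3.43 over DN3, Col9a3, a collagen IX chain, by 2.73 and 2.85, and Plscr1, a phospholipid scramblase that interferon induces, by 2.85 and 2.89. Plscr1 was at 10.81, 10.69 and 10.60 on the DN2 arrays, against 7.51 to 8.23 at DN1 and 7.58 to 8.19 at DN3. Both of its other probe sets were called the same way. Tuba8, an alpha tubulin, was at 7.33, 8.88 and 8.08 at DN2, against 4.39 to 4.83 at DN1 and 4.39 to 5.05 at DN3, a difference of 3.41 from each. Slfn3, a gene of the Schlafen family known from T cell quiescence, was at 6.46, 6.69 and 6.84 at DN2, against 3.20 to 5.0 at DN1 and 3.12 to 3.22 at DN3.

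Zbtb16, the zinc finger factor PLZF that directs innate-like T cells, was the leading transcription factor above both. It was at 3.32, 2.78 and 2.21 at DN1, at 8.37, 8.88 and 8.02 at DN2 and at 2.78, 3.06 and 3.79 at DN3. The DN1 and DN3 arrays overlapped, and DN2 exceeded DN1 by 5.65 (SE 0.45, adjusted p = 6.44e-08) and DN3 by 5.21 (SE 0.45, adjusted p = 2.79e-08, limma), with both other probe sets called the same way. Zbtb16 was also high in CMP, at 7.81 ± 0.55, and GMP, at 7.17 ± 0.38 (SD, n = 3 each). Of 12 measured genes of a list of gamma delta T cell genes, Zbtb16 was the 1 above both, while Blk and Id3 were below both. Over all genes 2.28% were above both and 1.15% below both. The innate-like T cell cytokine gene Il17a, chosen after its values were seen, was near the floor at every DN stage. Of the 12 listed genes, 0 were at the floor on all DN arrays.

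Pou2af1, the coactivator of octamer-binding factors in B cells, was at 7.16, 7.79 and 7.04 at DN2, against 2.80, 2.17 and 2.17 at DN1 and 2.80, 4.15 and 4.31 at DN3. It was at least 30.9-fold higher at DN2 than at DN1 (adjusted p = 2.94e-10, limma) and higher by 3.57 on the log2 scale than at DN3 (SE 0.27, adjusted p = 3.09e-09). Pou2af1 lay at or near the floor in all marrow populations. It was the 1 gene above both among 16 measured B lineage genes (2.28% over all genes). Of the 16, 7 were at the floor on all DN arrays.

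Cpa3, the carboxypeptidase of mast cell granules, was at 11.59, 10.35 and 11.68 at DN1, at 13.26, 13.37 and 13.11 at DN2 and at 9.13, 9.46 and 10.24 at DN3. DN2 held its highest level of all 8 populations, higher by 2.04 than DN1 (SE 0.46, adjusted p = 0.00757) and by 3.63 than DN3 (SE 0.46, adjusted p = 4.18e-06, limma). Itga2b, the integrin chain of platelets, was at 7.89, 7.92 and 6.95 at DN2, against 5.18 to 6.35 at DN1 and 3.00 to 4.71 at DN3. Of 17 measured erythroid, megakaryocyte and mast cell genes these 2 were above both and 0 below both (2.28% and 1.15% over all genes). Of the 17, 4 were higher than the midpoint and 0 lower (9.67% and 10.1% over all genes). At the floor on all DN arrays were 5 of the 17. The mean level of the list was 4.24 to 4.33 at DN2, against 4.38 to 4.64 at DN1 and 3.06 to 3.43 at DN3. The IgE receptor chain Fcer1a and the hemoglobin gene Hba-a1, chosen after their values were seen, were at or near the floor at all DN stages. They do not stand for the list. The part of such cells in the Cpa3 and Itga2b results was not tested.

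**Figure D3:**
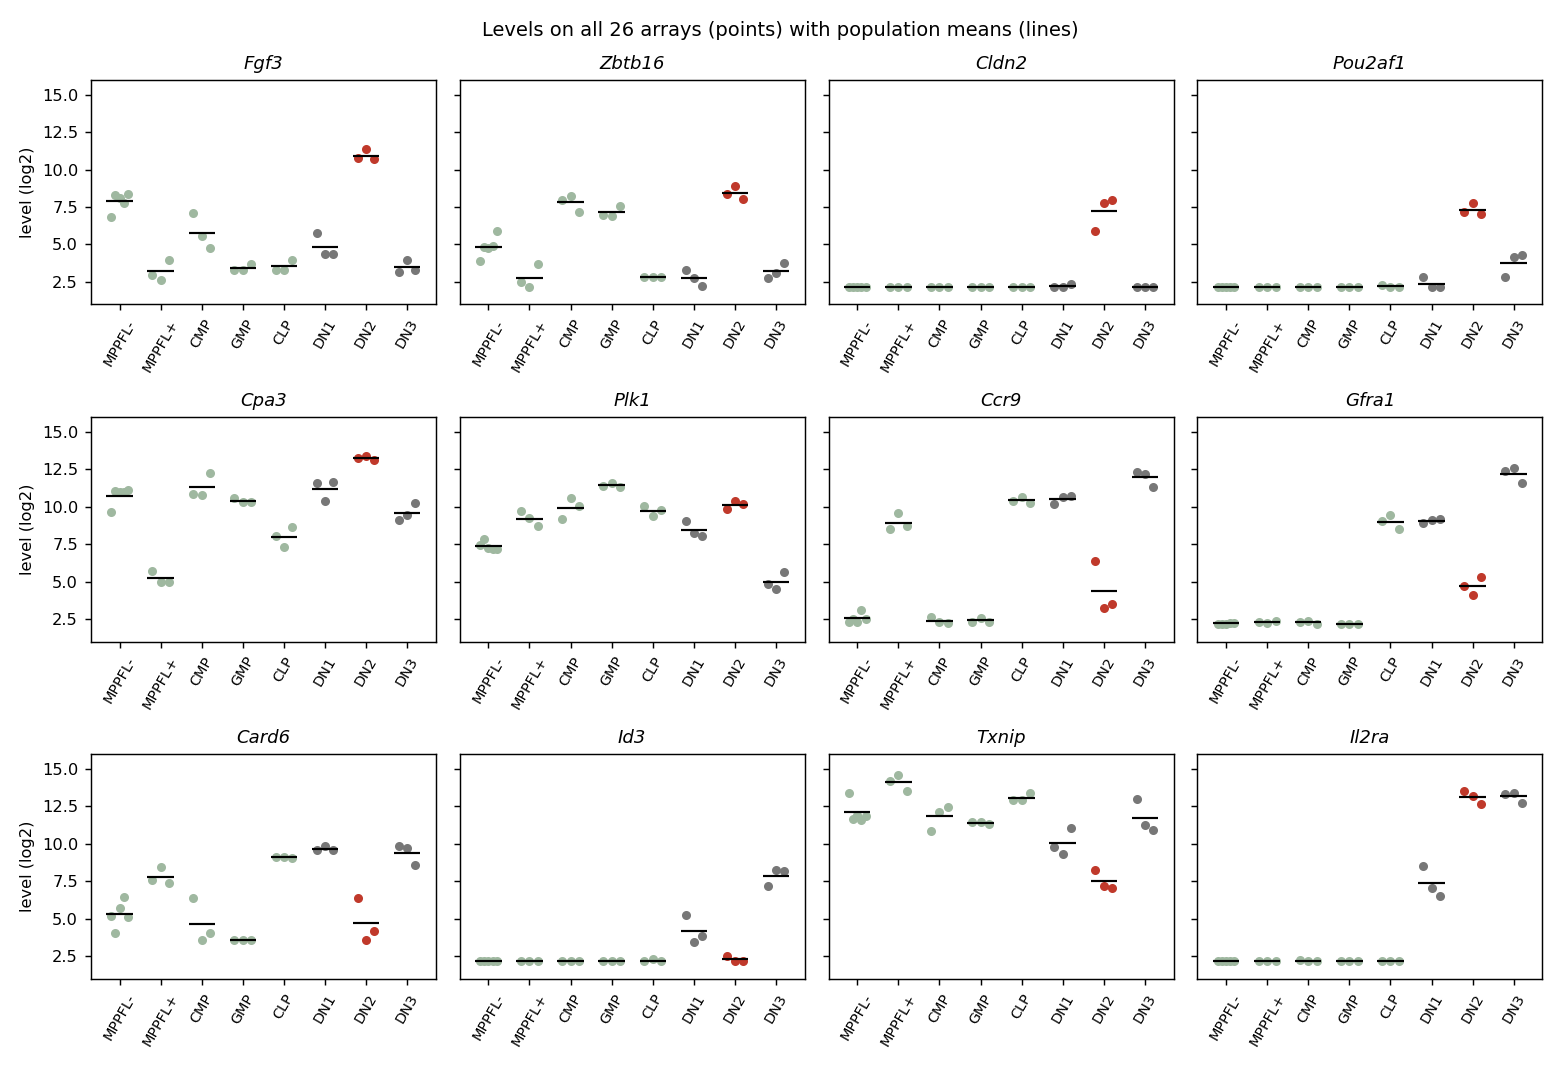
Levels (log2) of 12 genes on all 26 arrays by population, points for arrays and lines for means, with DN2 in red. Fgf3, Zbtb16, Cldn2, Pou2af1, Cpa3 and Plk1 peak at DN2 among the thymocyte stages, Ccr9, Gfra1, Card6, Id3 and Txnip dip there, and Il2ra rises to 13.14 at DN2 and stays at 13.16 at DN3.

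Mitosis genes formed the largest listed group above both. Of 31 measured mitosis and spindle genes, 18 were above both and 0 below both, against 2.28% above both over all genes. All 31 were higher at DN2 than at DN3 and 18 were higher than at DN1 (14.4% and 3.99% over all genes). Between DN2 and DN3 the array controls differed too. Their median difference was 1.0 from DN1 and 3.88 from DN3, and 2.56 from the midpoint, against 0.0 over all genes.

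Promoters of 4 of the 18 are printed below, because cell cycle genes are known to share the CCAAT box, bound by NF-Y, and the cell cycle homology region with the letters TTTGAA. The sequences are from RefSeq on GRCm38.p6 and run 5' to 3' on the strand of the gene, from 250 bases before its start to 50 after it, with both motifs, found on either strand, in capitals. Plk1 lies at chr7:122159185-122159484 (plus strand), Prc1 at chr7:80294201-80294500 (plus strand), Aurka at chr2:172370521-172370820 (minus strand) and Nuf2 at chr1:169531415-169531714 (minus strand). The first 3 hold both motifs, and Nuf2 is shown as 1 without either.
Plk1: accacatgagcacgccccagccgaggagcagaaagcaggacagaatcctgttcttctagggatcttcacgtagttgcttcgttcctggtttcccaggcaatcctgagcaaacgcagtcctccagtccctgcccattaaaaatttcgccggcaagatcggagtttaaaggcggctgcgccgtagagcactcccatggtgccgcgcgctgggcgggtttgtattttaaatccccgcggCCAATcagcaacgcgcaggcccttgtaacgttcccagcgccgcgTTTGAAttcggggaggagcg
Prc1: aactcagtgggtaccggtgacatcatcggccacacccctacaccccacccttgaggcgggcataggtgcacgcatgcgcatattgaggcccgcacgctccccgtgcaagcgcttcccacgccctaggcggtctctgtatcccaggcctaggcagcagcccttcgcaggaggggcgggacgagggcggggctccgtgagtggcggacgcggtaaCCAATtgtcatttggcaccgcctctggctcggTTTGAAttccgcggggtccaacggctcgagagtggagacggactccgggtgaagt
Aurka: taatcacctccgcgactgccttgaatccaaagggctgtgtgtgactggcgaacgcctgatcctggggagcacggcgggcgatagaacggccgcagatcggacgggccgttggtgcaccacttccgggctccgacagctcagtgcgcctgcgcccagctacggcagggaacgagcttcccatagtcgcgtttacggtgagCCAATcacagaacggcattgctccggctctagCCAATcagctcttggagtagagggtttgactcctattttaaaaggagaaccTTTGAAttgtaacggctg
Nuf2: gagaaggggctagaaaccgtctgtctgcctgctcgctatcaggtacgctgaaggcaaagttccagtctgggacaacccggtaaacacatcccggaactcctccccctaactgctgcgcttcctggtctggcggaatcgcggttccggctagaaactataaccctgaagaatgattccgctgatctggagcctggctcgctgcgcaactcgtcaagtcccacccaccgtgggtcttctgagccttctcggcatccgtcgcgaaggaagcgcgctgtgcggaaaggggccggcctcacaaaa

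In 24 of the 31 mitosis genes a promoter was at hand, and 66.67% of these held both CCAAT and TTTGAA on either strand. Of the 18 called genes 13 had a promoter once any on chromosome 18 was left out, and 8 of the 13 held both. The other shares given here leave out no chromosome. Both motifs were present in 16.57% of 332 promoters of genes above both, in 1.16% of 173 of genes below both and in 5.37% of 14369 of the genes tested. For CCAAT, with or without TTTGAA, the shares were 46.08%, 35.84% and 38.22%, and for TTTGAA likewise 24.1%, 9.25% and 13.36%. Over all 27025 promoters, 37.92% held CCAAT, 18.11% TTTGAA and 7.12% both. A match describes the letters in this window and is not a binding site or a cause.

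Plk1, the polo-like kinase that drives entry into mitosis and spindle assembly, was at 9.02, 8.26 and 8.04 at DN1, at 9.82, 10.37 and 10.19 at DN2 and at 4.83, 4.50 and 5.66 at DN3. The 3 stages did not overlap, and DN2 was higher by 1.68 than DN1 (SE 0.35, adjusted p = 0.00371) and by 5.13 than DN3 (SE 0.35, adjusted p = 7.88e-10, limma). Aurkb, the kinase of the chromosomal passenger complex, was at 9.37, 8.91 and 8.96 at DN1, at 10.53, 10.88 and 10.70 at DN2 and at 7.49, 6.80 and 6.96 at DN3. It exceeded DN1 by 1.63 (SE 0.21, adjusted p = 3.87e-05) and DN3 by 3.62 (SE 0.21, adjusted p = 1.12e-10, limma).

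Prc1, which bundles the microtubules of the central spindle, was at 9.50, 9.82 and 8.88 at DN1, at 11.08, 11.06 and 11.08 at DN2 and at 7.44, 7.25 and 7.38 at DN3. Nuf2, a subunit of the NDC80 complex that holds microtubules at kinetochores, was at 10.47, 10.27 and 9.82 at DN1, at 11.61, 11.87 and 11.77 at DN2 and at 5.14, 5.21 and 7.03 at DN3. DN2 was highest in both, without overlap, by 1.67 for Prc1 (SE 0.26, adjusted p = 0.000271) and 1.56 for Nuf2 (SE 0.38, adjusted p = 0.0132, limma) over DN1. Tpx2, which targets the Aurora A kinase to the spindle, exceeded DN1 by 1.41 (adjusted p = 0.000643, limma). Of its 3 other probe sets, 0 were called. Aurka, Aurora A itself, exceeded DN1 by 1.11 (adjusted p = 0.0283, limma). Depdc1a and Ska3, also known from mitosis, were among the 20 leading genes, above DN1 by 2.11 and 2.03 and above DN3 by 6.18 and 2.86.

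The mitosis genes not called above both missed the test against DN1. Mki67, the source of the Ki-67 proliferation antigen, averaged 13.79 at DN1, 14.47 at DN2 and 10.55 at DN3, with a difference from DN1 of 0.69 (adjusted p = 0.134). Cdc20, the activator of the anaphase-promoting complex, differed from DN1 by 0.21 (adjusted p = 0.795) and from DN3 by 0.83 (adjusted p = 0.0084, limma). On the 9 DN arrays alone the count of mitosis genes above both was 5. Without DN2 replicate 2 the count of mitosis genes above both was 9, without DN2 replicate 3 it was 11, without the arrays with Xist it was 1, and with the spike-in covariate it was 5.

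The summed picture was tight between arrays. The mean level of the mitosis list was 10.34, 10.25 and 10.27 on the DN1 arrays, 11.15, 11.34 and 11.31 on the DN2 arrays and 7.72, 7.07 and 7.62 on the DN3 arrays, with no overlap between stages. For the same list CLP averaged 11.56, GMP 11.28, MPPFL+ 11.25, CMP 10.77 and MPPFL- 10.1. Set against CLP, DN2 was over for 1 gene and under for 8 of the 31 (9.77% and 19.6% over all genes). Set against GMP it was over for 5 and under for 7 (14.6% and 18.3%), and set against MPPFL- over for 27 and under for 0 (12.6% and 17.7%). Against MPPFL+ it was over for 4 and under for 6 (10.7% and 20.9%), and against CMP over for 12 and under for 2 (15.1% and 13.4%).

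DNA replication genes followed with smaller differences. Of 30 measured, 13 were above both and 0 below both (2.28% and 1.15% over all genes), with a median midpoint difference of 1.17. Rrm2, the regulated subunit of ribonucleotide reductase, was at 11.96, 12.25 and 12.01 at DN1, at 13.70, 13.50 and 13.31 at DN2 and at 11.01, 10.83 and 11.11 at DN3. It exceeded DN1 by 1.43 (SE 0.18, adjusted p = 1.94e-05) and DN3 by 2.52 (SE 0.18, adjusted p = 1.48e-09, limma), and both other probe sets were called the same way. Ccne2, a cyclin of the entry into S phase, was at 10.70, 11.01 and 9.55 at DN1, at 11.92, 11.95 and 12.31 at DN2 and at 8.53, 8.50 and 9.05 at DN3.

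Genes of origin licensing differed among themselves. Cdc6, which loads the replicative helicase, exceeded DN1 by 1.34 (SE 0.22, adjusted p = 0.000399) and DN3 by 2.26 (SE 0.22, adjusted p = 1.1e-07). Of the helicase subunits Mcm2 to Mcm7, Mcm3 alone was called, at 0.69 over DN1 (adjusted p = 0.0141) and 0.95 over DN3 (adjusted p = 0.000222, limma). Mcm7 averaged 14.41 at DN1, 14.59 at DN2 and 14.59 at DN3. Uhrf1, which recruits the maintenance DNA methyltransferase to newly made DNA, was highest at DN3, averaging 10.86 at DN1, 11.57 at DN2 and 13.80 at DN3. The list mean was 11.19, 11.06 and 11.15 at DN1, 11.79, 12.04 and 11.91 at DN2 and 10.28, 10.40 and 10.50 at DN3. The count of replication genes above both was 3 on the 9 DN arrays alone, 7 without DN2 replicate 2, 2 without the arrays with Xist and 2 with the spike-in covariate.

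**Figure D4:**
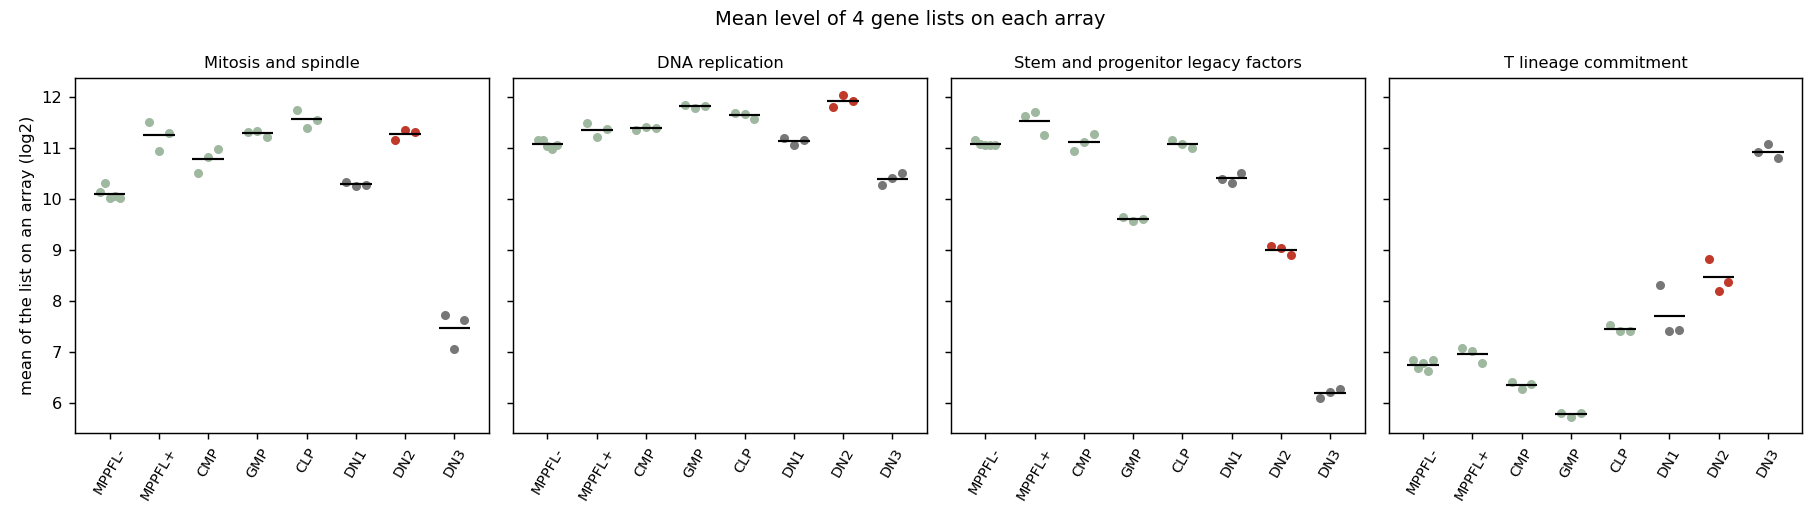
Mean level (log2) of 4 gene lists on each of 26 arrays, points for arrays and lines for population means, with DN2 in red. Mitosis and DNA replication genes peak at DN2 among thymocytes, stem and progenitor factors fall through DN1, DN2 and DN3, and T lineage genes climb to 10.92 at DN3.

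Other growth-related lists held few called genes, as lists of this length do at the shares over all genes. Of 24 ribosome biogenesis genes, 0 were called above or below both (2.28% and 1.15% over all genes). Against the midpoint 10 were higher and 0 lower (9.67% and 10.1% over all genes). The list mean was 11.42 at DN2, against 11.16 at DN1 and 11.06 at DN3. For that list 10 genes were higher at DN2 than at DN3 and 0 than at DN1 (14.4% and 3.99% over all genes). Of 17 glycolysis genes and 14 cholesterol synthesis genes, 0 were called either way (2.28% above both and 1.15% below both over all genes). Among 16 cyclins and Cdk inhibitors, Rbl1, the pocket protein p107, was the 1 above both (2.28% over all genes). It exceeded DN1 by 0.85 (adjusted p = 0.0089) and DN3 by 1.29 (adjusted p = 3.69e-05, limma).

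By the difference from the nearer stage, the first genes below both were Ccr9, Card6, Gfra1 and Grasp. Ccr9, the chemokine receptor that draws progenitors to the thymus, was at 10.20, 10.65 and 10.68 at DN1, at 6.41, 3.22 and 3.50 at DN2 and at 12.35, 12.21 and 11.30 at DN3. The log2 difference of DN2 was -6.13 from DN1 (SE 0.55, adjusted p = 2.6e-07) and -7.58 from DN3 (SE 0.55, adjusted p = 1.88e-09, limma). DN2 replicate 1 was higher than the other two, yet below every DN1 and DN3 array. Of its 4 other probe sets 1 was called below both and 0 above both. In marrow, Ccr9 averaged 10.44 ± 0.19 (SD, n = 3) for CLP, 8.91 ± 0.58 for MPPFL+ and 2.40 to 2.56 for the rest.

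Gfra1, the co-receptor that binds glial cell line-derived neurotrophic factor, was at 8.94, 9.12 and 9.17 at DN1, at 4.70, 4.08 and 5.30 at DN2 and at 12.37, 12.61 and 11.61 at DN3. The stages did not overlap, with DN2 minus DN1 at -4.39 (SE 0.25, adjusted p = 5.68e-10) and DN2 minus DN3 at -7.50 (SE 0.25, adjusted p = 1.78e-14, limma). Its 2 other probe sets were not called. In marrow Gfra1 was at 9.0 ± 0.45 in CLP and near the floor in the other marrow populations. Card6, a caspase recruitment domain protein, was at 9.61, 9.88 and 9.57 at DN1, at 6.40, 3.56 and 4.18 at DN2 and at 9.83, 9.70 and 8.59 at DN3, and so close to equal on both sides of the dip.

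Txnip, which binds thioredoxin and limits glucose uptake, was at 9.80, 9.31 and 11.09 at DN1, at 8.24, 7.17 and 7.07 at DN2 and at 12.97, 11.29 and 10.93 at DN3. DN2 minus DN1 was -2.57 (SE 0.58, adjusted p = 0.00711) and DN2 minus DN3 -4.24 (SE 0.58, adjusted p = 9.89e-06, limma). DN2 held the lowest mean of all 8 populations, and the other probe set of Txnip was not called. Btg2, an antiproliferative gene of the immediate early class, was at 10.15, 11.36 and 11.08 at DN1, at 7.85, 8.15 and 9.90 at DN2 and at 12.37, 12.01 and 11.65 at DN3. DN2 replicate 3 was close to the DN1 range for Btg2, and the difference from DN1 was -2.23 (SE 0.61, adjusted p = 0.0265, limma).

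Id3, an inhibitor of the E protein transcription factors, was at 2.52, 2.17 and 2.17 at DN2, against 5.23, 3.48 and 3.85 at DN1 and 7.16, 8.29 and 8.21 at DN3. With DN2 near the floor, Id3 was at least 3.74-fold lower there than at DN1 (adjusted p = 0.00035) and at least 48.5-fold lower than at DN3 (adjusted p = 3.08e-11, limma). It was at or near the floor in all marrow populations as well.

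Traf1, an adaptor of TNF receptors, was at 4.01, 3.93 and 3.93 at DN2, against 6.11, 8.68 and 8.29 at DN1 and 6.67, 6.27 and 5.84 at DN3. Dhx58, the RNA sensor regulator LGP2, was lower by -2.95 than DN1 and -3.98 than DN3, and Vsir, the checkpoint protein VISTA, by -3.12 and -2.93. Afdn, the adherens junction protein afadin, differed by -2.96 from DN1 and -5.89 from DN3, and Grasp, a scaffold of receptor trafficking, by -4.05 and -7.26. The zinc finger genes Zfp467 and Zfp658 differed by -5.33 and -3.83 from DN1 and by -3.69 and -3.38 from DN3. Of the other probe sets of Traf1, Dhx58, Vsir, Afdn, Grasp and Zfp467, 0 were called. The tetraspanin gene Cd82 is uncertain, since its brightest probe set was below both while its other probe set was called above both. Of 28 cytokine receptor and Jak-Stat genes, 1 was below both and 0 above both (1.15% and 2.28% over all genes). It was Il6st, the shared receptor chain gp130, at -1.71 from DN1 (adjusted p = 0.000218) and -1.12 from DN3 (adjusted p = 0.00242, limma).

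Of 30 measured T lineage commitment genes, 1 was above both and 2 below both (2.28% and 1.15% over all genes). At DN2, 10 were over DN1 and 3 under it (3.99% and 4.12%), while 3 were over DN3 and 23 under it (14.4% and 16.7%), the comparison in which the array controls differed too. The median midpoint difference was -0.70, against 0.0 over all genes. Cd5, a surface brake on T cell receptor signals, was at 7.69, 5.77 and 6.50 at DN1, at 8.15, 7.96 and 8.16 at DN2 and at 6.29, 7.13 and 6.68 at DN3. It was above DN1 by 1.44 (SE 0.31, adjusted p = 0.00483) and above DN3 by 1.39 (SE 0.31, adjusted p = 0.00142, limma). Cd6, a relative of Cd5, and Cd27, a TNF receptor family member, were below both, by -1.30 and -1.40 from DN1 and by -1.64 and -1.22 from DN3. Bcl11b was at 14.07, 13.87 and 13.80 at DN2 and at 14.52, 14.75 and 14.58 at DN3, so that its gain of 8.31 over DN1 (SE 0.95, adjusted p = 7.37e-06, limma) was a step.

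Of 18 Notch receptors and targets and 24 stem and progenitor factors, 0 were called either way. Over all genes 2.28% were above both and 1.15% below both, so lists of this length hold few called genes in any case. Of 18 Notch receptors and targets, 2 were higher than the midpoint and 6 lower (9.67% and 10.1% over all genes). Among the 6 was Dtx1, a Notch target of the DN3 stage, at 6.02 to 6.49 at DN2, against 6.51 to 6.96 at DN1 and 11.79 to 13.27 at DN3. The other probe set of Dtx1 was called below both. Of 24 stem and progenitor factors, 11 were lower at DN2 than at DN1 (4.12% over all genes) and 17 were higher than at DN3 (14.4%). Hhex and Lyl1, progenitor transcription factors, stayed at 11.25 to 11.38 and 10.27 to 10.72 at DN2, against 12.25 to 12.47 and 10.58 to 11.33 at DN1, and lay at 2.22 to 4.47 and 2.25 to 3.49 at DN3. Of 10 V(D)J recombination genes and 19 interferon response genes 0 were called either way (2.28% above both and 1.15% below both over all genes). Of the V(D)J genes 1 was higher than the midpoint and 2 lower (9.67% and 10.1% over all genes). Of the interferon genes 2 were higher and 5 lower. The interferon list had a median midpoint difference of -0.43, against 0.0 over all genes. Of 16 late thymocyte genes Ccr9 was the 1 called, below both (1.15% over all genes). The recombinase gene Rag1 rose in steps, from 6.07 to 7.79 on the DN1 arrays through 8.89 to 9.86 on the DN2 arrays to 14.23 to 15.39 on the DN3 arrays.

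DNA methylation genes, the subject named in the study's title, held 2 of 18 above both and 0 below both (2.28% and 1.15% over all genes). Hells, a chromatin remodeller needed for DNA methylation, was above DN1 by 0.90 (SE 0.23, adjusted p = 0.017) and above DN3 by 1.56 (SE 0.23, adjusted p = 2.36e-05, limma). Mbd2, a methyl-CpG binding protein, was above them by 0.58 and 0.46. Of 21 alternative settings, the call was lost in 7 for Hells and 9 for Mbd2, and 0 of their other probe sets were called. Dnmt1, the maintenance methyltransferase, averaged 11.66 ± 0.68 at DN1, 11.82 ± 0.34 at DN2 and 12.86 ± 0.25 at DN3 (SD, n = 3 each) and was not called, nor were Dnmt3a, Dnmt3b, Tet1 and Tet2. For Tet1, 1 of 3 other probe sets was called below both.

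Markers of other cells that a DN sort could hold were set beside these results. The mean level of 22 granulocyte and macrophage genes was 6.06 to 6.38 at DN1, 4.42 to 4.57 at DN2 and 3.23 to 3.54 at DN3. Of these genes 0 were called above or below both (2.28% and 1.15% over all genes). Within this list Mpo, the myeloperoxidase, was still at 11.22 to 11.41 at DN2, while Cd14 and Ngp were at or near the floor on all DN arrays. Of the 22 genes, 2 were at the floor on all DN arrays. Against the midpoint 3 of the 22 were higher and 6 lower (9.67% and 10.1% over all genes). The mean of 18 dendritic cell and macrophage genes was 4.92 to 4.99 at DN1, 4.16 to 4.45 at DN2 and 3.51 to 3.85 at DN3. That of 16 NK and innate lymphoid genes was 5.17 to 5.72, 4.98 to 5.19 and 3.90 to 4.0. In both lists 0 were called (2.28% above both and 1.15% below both over all genes). Klrd1, the CD94 chain of NK receptors, was at 10.85 to 11.0 at DN1, 3.74 to 5.37 at DN2 and 3.40 at DN3. Gzmb, a granzyme gene, was at 5.0 to 7.09 at DN1, 7.01 to 8.21 at DN2 and 2.20 to 2.58 at DN3. The NK genes Ncr1 and Klrk1 were at the floor on all DN arrays. Of the 16 NK and innate lymphoid genes, 5 were at the floor on all DN arrays. Against the midpoint 3 were higher and 2 lower (9.67% and 10.1% over all genes). Of 21 stroma, epithelium and endothelium genes, 1 was called, above both (2.28% over all genes). It was Col3a1, a fibrillar collagen, at 2.17 to 2.81 on the DN2 arrays, close to the floor. The part of such cells in the genes above and below both was not tested.

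Genes of the immediate early and stress response, known to react to handling of cells, differed among replicates. The mean of 23 such genes was 9.89, 12.23 and 12.02 at DN1, 8.58, 8.81 and 11.31 at DN2 and 6.52, 6.66 and 8.40 at DN3. Replicate 3 of DN2 and of DN3 and replicates 2 and 3 of DN1 were the high arrays of their stages. Btg2 was the 1 gene of the list below both and 0 were above both (1.15% and 2.28% over all genes). The early genes Fos and Egr3 were not called, with Fos at 12.32, 12.66 and 14.73 at DN2, against 13.40, 15.12 and 15.28 at DN1 and 4.20, 3.00 and 12.20 at DN3. The part of handling in the Btg2 result was not tested.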

How the data were processed

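Messenger RNA was measured on 26 Affymetrix arrays, 1 per sample. Per the labels, total RNA was taken up in Trizol and biotin-labelled by the array maker's protocol. The deposited log2 levels were used unchanged. The normalization and the summary per probe set are not given in the sources used here. Of 45101 probe sets, 34958 were named with 1 gene, and each of 18194 genes was represented by its probe set of highest average (9012 had over 1). No filter on dim genes was applied. The lowest value, 2.17, recurs on all arrays and is read as the floor. It was taken by all DN arrays for 2942 genes. The number of arrays limits precision.

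All 26 arrays were fitted with limma (version 3.58.1, R 4.3.3; lmFit, eBayes) with population as the only term and 18 residual degrees of freedom. A single spread per gene was shared by all populations. Arrays flat at the floor narrow it, so p-values of genes such as Cldn2, Pou2af1, Gfra1 and Id3 can be too low. The contrasts were DN2 minus DN1, DN2 minus DN3, DN2 minus their average, and DN2 minus each marrow population. Tests were two-sided, with Benjamini-Hochberg adjustment over all genes and a threshold of 0.05. "At least" folds compare means where the lower stage lay within 1 log2 unit of the floor on all arrays, and bound the floor only. The code was tested on simulated data.

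Genes named are the 20 called genes per direction with the largest difference from the nearer stage, without overlap of arrays and with a stage mean of at least 5.31, passing over clone and predicted names. To these come up to 5 called members of each of 23 lists, the markers of the stages, and genes of DNA methylation. Other genes in the text, among them Aurka, Mki67, Cdc20, Mcm3, Mcm7, Uhrf1, Il17a, Fcer1a, Hba-a1, Cd14, Ngp, Ncr1, Klrk1, Xist, Eif2s3y, Lrrc40 and Rangap1, were chosen after their values were seen. The comparison, lists and members were chosen with earlier results of these data known. Replicate numbers were not taken to pair samples, since deviations of same-numbered DN arrays correlated between -0.24 and 0.19 over 9 pairs. Alternatives covered the arrays and probe sets used, normalization, dim genes, covariates, a replicate block and single arrays left out.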

Additional observations from a re-analysis of the deposited data

Results flagged for a closer look

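Ccr9 was at 3.09 on MPPFL- replicate 4, far from the other 4 MPPFL- arrays for the size of their range. Cpa3, at 9.65, and Txnip, at 13.4, stood apart in the same sense on MPPFL- replicate 1. MPPFL- is the one population with over 3 arrays, and chance sets an array apart in this sense in about 1 of 20 groups. No DN array enters these values.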

How the results depend on the processing

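With all arrays 415 genes were above both, 209 below both, and 1759 and 1832 higher and lower than the midpoint. In the same order the counts were 130, 67, 1007 and 796 with the 9 DN arrays alone, and 74, 16, 501 and 200 with the spike-in covariate. For a difference of at least 1 they were 169, 130, 677 and 988. Without the 4 DN1 and DN2 arrays with Xist, 70 were below both, 981 higher and 1005 lower. With every probe set tested, 623 were above both, 2847 higher and 2811 lower. Leaving out 1 array gave 262 to 444 above both, 137 to 324 below both, 1617 to 2005 higher and 1283 to 2237 lower. Single arrays moved these 4 counts by over 1.5 times in 4 cases, namely 262 above and 137 below both without DN1 replicate 3, 324 below without DN1 replicate 2 and 274 above without DN2 replicate 2. Without DN2 replicate 2 the 18 mitosis and 13 replication genes above both became 9 and 7, and without DN2 replicate 3 the mitosis genes became 11. The cause was not tested. With a replicate block, 319 genes were above both and 163 below both, of which 313 and 158 were also called without it, and 14 mitosis genes were above both.

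Of 61 named genes called above or below both, 34 kept their call with the 9 DN arrays alone, 33 without the arrays with Xist and 3 (Gfra1, Aurkb and Id3) with the spike-in covariate. The spike-in level set DN3 apart from DN1 and DN2, so the fit with it cannot separate it from stage. Under that covariate the nearer difference turned in sign for Esm1 (-1.85), Slc49a4 (0.48), Cdc6 (-0.62), Ccne1 (-2.31) and Tk1 (-0.43). Without the arrays with Xist it turned for Col3a1 (-0.0355). Gfra1 and Aurkb kept their call in all 21 settings, and Fgf3 and Zbtb16 lost theirs with the covariate alone (adjusted p = 0.0659 and 0.228, limma), with nearer differences of 6.13 and 5.66 there, against 6.12 and 5.21 without it. Quantile normalization kept the call of 59 of the 61.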

Other observations

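The genes given here lie outside the lists and were picked from the called genes after their values were seen, so they stand for no group. Above both, Exo1, a DNA exonuclease of mismatch repair, was at 9.79, 10.20 and 9.72 at DN2, against 8.83, 8.92 and 8.63 at DN1 and 6.77, 6.60 and 7.12 at DN3, with adjusted p = 0.0001 against DN1 (limma). Brca1, a gene of homologous recombination, exceeded DN1 by 1.14 (adjusted p = 0.00696) and DN3 by 3.18 (adjusted p = 9.04e-09, limma). Chek1, the checkpoint kinase of replication stress, exceeded DN1 by 0.63 and DN3 by 2.74, and 3 of its 4 other probe sets were called the same way. Ezh2, the methyltransferase of Polycomb repressive complex 2, was at 13.03, 13.17 and 13.29 at DN2, against 12.46 to 12.61 at DN1 and 12.13 to 12.43 at DN3.

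Among genes below both, picked in the same way, H2-DMa, which loads peptides on MHC class II, was at 8.23, 8.81 and 8.41 at DN2, against 11.47, 10.37 and 11.85 at DN1 and 10.10, 10.05 and 9.79 at DN3. Its difference was -2.74 from DN1 (adjusted p = 9.76e-07) and -1.50 from DN3 (adjusted p = 0.000211, limma). H2-Oa, its modulator, differed by -2.77 and -1.28, and Rfx5, a factor of MHC promoters, by -0.86 and -0.92. Cd274, the checkpoint ligand PD-L1, differed by -1.37 and -2.40. The NFAT genes Nfatc1 and Nfatc2, effectors of calcium signals, differed by -1.16 and -1.52 from DN1 and by -2.54 and -1.83 from DN3, and 0 of their 4 and 5 other probe sets were called.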
